A study of Oryza sativa with 6 samples.

Results

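Iron acquisition in rice roots was examined through 10 loci for nicotianamine synthesis, phytosiderophore synthesis and transport, and their regulation: OsNAS1, OsNAS2, OsNAS3, OsNAAT1, OsDMAS1, OsTOM1, OsYSL15, OsYSL2, OsIRO2 and OsIRO3. Members were taken by locus number, as the part of each probe name before its first separator. By that rule 9 of the 10 loci had a probe, with 14 probes in all, and 8 loci passed the filter on dim signal. The arrays held 30218 genes and other targets, of which 23490 passed the same filter. The members were selected on measured values of these same arrays, the ratios of both exposures and both channels, so their values are given as a description, without a test.

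Roots came from 6-day-old seedlings of the cultivar TN-67. One group had been exposed to 50 µM hexavalent chromium, Cr(VI), for 24 h, the other for a short time (RNA pooled from 1 h and 3 h), and each was set against roots kept in water. Each exposure had 3 dual-colour Agilent arrays from samples that the labels call biological replicates, with Cr(VI) RNA in Cy5 and water RNA in Cy3 throughout. Without a dye swap, a dye bias of a probe adds to each of its ratios, and it is not stated whether arrays had control RNA in common.

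Grasses take up iron with phytosiderophores, small chelators that roots secrete and take back as iron complexes. Nicotianamine synthases (NAS) join S-adenosylmethionine into nicotianamine, a metal chelator that moves iron within the plant, and nicotianamine aminotransferase (NAAT) and deoxymugineic acid synthase (DMAS) turn it into deoxymugineic acid, the phytosiderophore of rice. TOM1 exports deoxymugineic acid, YSL15 takes up its iron(III) complex, YSL2 carries metal complexes of nicotianamine, and the basic helix-loop-helix factors IRO2 and IRO3 act on the response to iron shortage, IRO2 as an activator and IRO3 as a repressor.

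The main measure was the log2 ratio of Cr(VI) over water signal on one array. Correlations of this ratio across genes ran from 0.916 to 0.96 between 24 h arrays, from 0.881 to 0.923 between short arrays and from 0.528 to 0.632 between an array of each exposure; genes are not independent replicates. The 24 h arrays shared slide 3, short replicate 1 was on slide 1 and short replicates 2 and 3 were on slide 2, so slide and exposure cannot be told apart. Local background in Cy3 was 71.5 and 73.5 on slide 2 and 36 to 40.5 on the other arrays. Neither channel had saturated spots. Precision is limited by the number of arrays, and where replicates were not grown apart their SD measures technical spread. In bulk roots, fewer cells of a type and less RNA per cell cannot be told apart.

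Of the 9 loci with a probe, 2 (OsYSL15 and OsTOM1) were at least 2-fold lower at 24 h with one sign on all 3 arrays, where 3.33% of all tested genes met that rule, and OsIRO3 alone was at least 2-fold higher, against 4.75% of all genes. After the short exposure 3 loci (OsNAS1, OsNAS2 and OsTOM1) were at least 2-fold lower, against 0.634% of all genes, and OsIRO3 alone was at least 2-fold higher, against 4.51%. OsIRO3 lay so close to 2-fold that several alternative settings placed it below at either exposure. Since these ratios chose the loci, nothing is read from the shares. The ratio was below 0 on all 3 arrays for 6 of 9 loci at 24 h, against 36.6% of all genes, and for 6 of 9 after the short exposure, against 33.8%. It was above 0 on all 3 arrays for OsIRO3 alone at either exposure, against 39.7% of all genes at 24 h and 38.7% after the short exposure. The median log2 ratio over the 9 loci was -0.45 at 24 h and -0.59 after the short exposure, and the median over all genes was 0.02 in both. Here and below, the 9 loci include OsYSL2, which did not pass the filter, whereas values for all genes cover only genes that passed it. Of the 8 loci that passed, 6 were below 0 on all 3 arrays at 24 h and 6 after the short exposure.

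**Figure D1:**
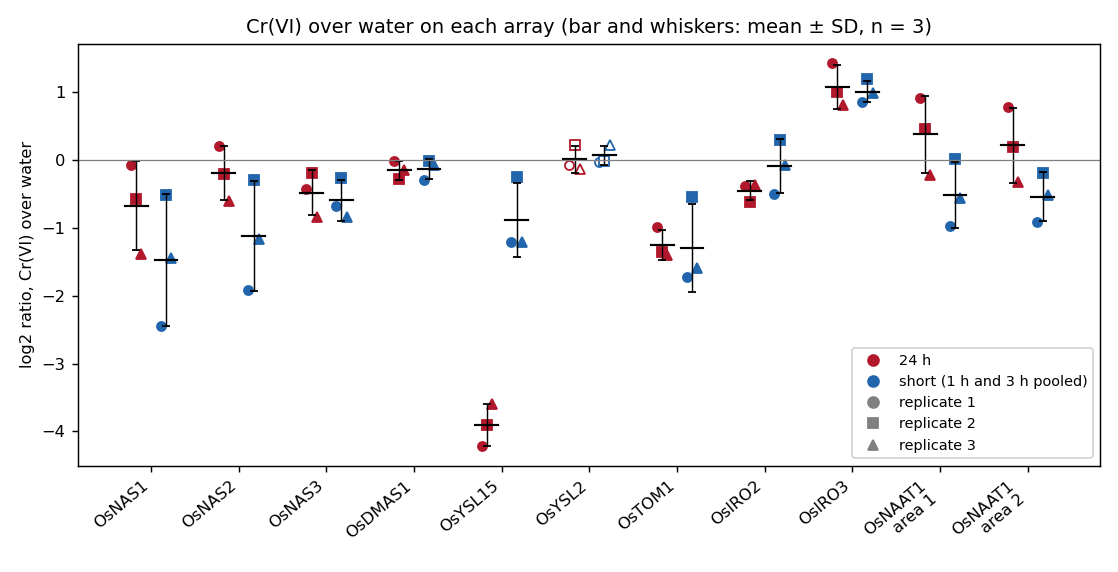
Log2 ratio of Cr(VI) over water signal (vertical axis) for each iron acquisition locus (horizontal axis) on every array, with 24 h arrays in red and short arrays in blue, one marker per replicate, and mean ± SD (n = 3) as black bars. Open markers are OsYSL2, whose signal stayed close to background throughout, and the OsNAAT1 probes are those named for the area of its locus. OsYSL15 lies between -4.22 and -3.59 at 24 h, below all its short values, and OsIRO3 lies above 0 on every array.

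The iron(III)-phytosiderophore transporter OsYSL15 (Os02g0650300, chromosome 2) had log2 ratios of -4.22, -3.90 and -3.59 on the 24 h arrays and -1.20, -0.25 and -1.20 on the short arrays. All 3 values at 24 h lay below all 3 short values, with a gap of 2.39 between the nearest arrays. This order, with a gap of any size, was found for 27.6% of all genes and for no other member. The opposite order, all 24 h values above all short values, was found for 0 of 9 loci and 22.1% of all genes. The mean ratio was -3.90 ± 0.31 at 24 h (SD, n = 3), 15-fold lower than water, and -0.88 ± 0.55 after the short exposure, 1.85-fold lower. Among the 23490 genes, OsYSL15 had the 11th lowest mean ratio at 24 h and the 246th lowest after the short exposure.

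The channels were also set side by side. The log2 level of OsYSL15 in Cr(VI) roots was 7.99, 8.28 and 7.77 at 24 h and 10.45, 9.77 and 10.30 after the short exposure. Its level in water roots was 12.21, 12.18 and 11.36 on the 24 h arrays and 11.65, 10.02 and 11.50 on the short arrays. The Cr(VI) level was thus lower on all 24 h arrays than on all short arrays, as it was for 28.1% of all genes, while the water levels of the exposures overlapped. Before any correction, the 24 h spots read 243.5, 231 and 178 intensity units in Cr(VI) roots against 7233.5, 5223 and 2959 in water roots, and all of them were well above background.

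The phytosiderophore exporter OsTOM1 (Os11g0134900, chromosome 11) had log2 ratios of -0.99, -1.35 and -1.40 at 24 h and -1.73, -0.54 and -1.59 after the short exposure. The exposures overlapped and their means nearly coincided, at -1.25 ± 0.22 (2.37-fold lower) and -1.29 ± 0.65 (2.44-fold lower; SD, n = 3 each). Its Cr(VI) signal was well above background on all 3 arrays at 24 h and on 2 of 3 short arrays. With the offset of the background correction at 0 the means were -1.62 at 24 h and -1.85 after the short exposure, and with Agilent's processed signals, which differ in both background correction and dye normalization, they were -1.85 and -3.39. All 6 arrays stood below 0.

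The remaining transporter, OsYSL2 (Os02g0649900, chromosome 2), did not stand well above background in either channel of the 6 arrays. Its spots read 60 to 68 intensity units in Cr(VI) roots and 86.5 to 216 in water roots, and no fold is given.

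OsNAS1 (Os03g0307300, chromosome 3), which encodes a nicotianamine synthase, had log2 ratios of -0.07, -0.57 and -1.38 at 24 h and -2.45, -0.51 and -1.44 after the short exposure. All 6 values were below 0, the exposures overlapped, and the mean was -0.67 ± 0.66 at 24 h and -1.47 ± 0.97 after the short exposure (SD, n = 3 each), or 1.59-fold and 2.76-fold lower than water. Without short replicate 1 the short mean was -0.98, and the omission of a 24 h array moved the 24 h mean between -0.97 and -0.32. Its replicate SD exceeded that of 99.5% of genes at 24 h and 99.9% after the short exposure, where the median gene had 0.11 and 0.108.

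OsNAS2 (Os03g0307200, chromosome 3), its neighbour, had log2 ratios of 0.21, -0.20 and -0.60 at 24 h and -1.91, -0.29 and -1.16 after the short exposure. The values at 24 h lay on both sides of 0, and those of the short arrays were all below it. The mean was -0.19 ± 0.40 at 24 h and -1.12 ± 0.81 after the short exposure (SD, n = 3 each), the short one 2.17-fold lower than water. Without short replicate 1 it was -0.72.

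OsNAS3 (Os07g0689600, chromosome 7), the third synthase, had log2 ratios of -0.43, -0.19 and -0.84 at 24 h and -0.68, -0.26 and -0.84 after the short exposure. The exposures overlapped across nearly their whole range, with means of -0.48 ± 0.33 and -0.59 ± 0.30 (SD, n = 3 each). Its Cr(VI) signal was well above background on 2 of 3 short arrays, and Agilent's processed signals gave a short mean of -1.74.

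The channel levels behind these ratios varied widely from array to array. OsNAS1 stood at 13.45, 12.76 and 10.71 on the log2 scale in Cr(VI) roots at 24 h, against 13.53, 13.33 and 12.09 in water roots on the same arrays. On the short arrays it stood at 10.29, 9.63 and 10.82 in Cr(VI) roots, against 12.74, 10.14 and 12.26 in water roots. The range over the short arrays was thus 1.19 in Cr(VI) roots and 2.59 in water roots, where the median gene ranged over 0.307 and 0.299. Over the 24 h arrays the range of OsNAS1 was 2.74 in Cr(VI) roots and 1.44 in water roots, where the median gene ranged over 0.236 and 0.209.

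OsNAS2 stood at 15.70, 15.47 and 13.76 in Cr(VI) roots at 24 h, against 15.48, 15.66 and 14.36 in water roots. On the short arrays it stood at 12.62, 12.04 and 13.09 in Cr(VI) roots, against 14.53, 12.33 and 14.24 in water roots. OsNAS2 and OsNAS3 had higher Cr(VI) levels on all 24 h arrays than on all short arrays, as did 22.8% of all genes, and OsNAS3 had higher water levels too, as did 16.1%. The mean level of OsNAS3 was higher at 24 h than after the short exposure by 2.10 in Cr(VI) roots and by 1.98 in water roots, which left its ratio nearly equal. These levels come from different slides, which cannot be told apart from the exposures.

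**Figure D2:**
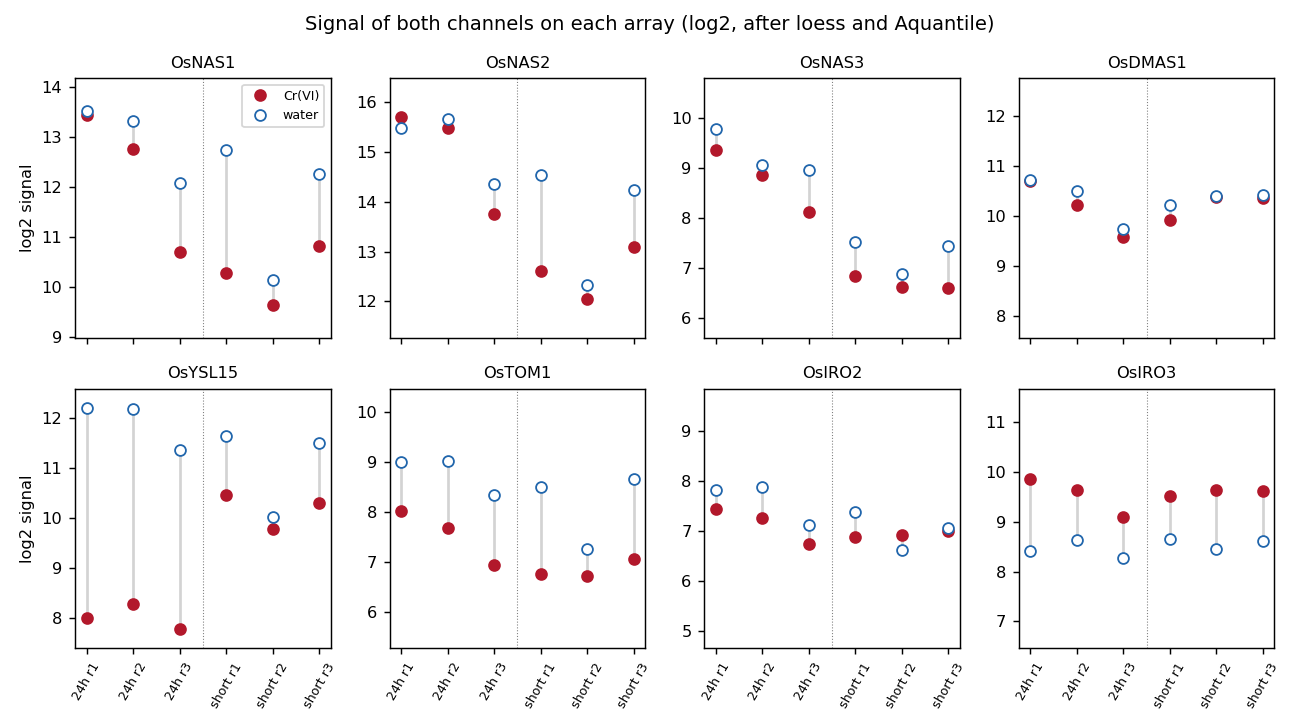
Log2 signal (vertical axis, after loess and Aquantile normalization) of 8 iron acquisition loci on each array (horizontal axis), filled for Cr(VI) roots and open for water roots, with a grey line joining the channels of one array. The long lines of OsYSL15 at 24 h end at low Cr(VI) levels of 7.77 to 8.28, whereas the short line of OsNAS1 on short replicate 2 joins a Cr(VI) level of 9.63 and a water level of 10.14, the lowest water level of its 6 arrays.

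OsDMAS1 (Os03g0237100, chromosome 3), the final enzyme of deoxymugineic acid synthesis, was less than 2-fold from water on every array. Its log2 ratios were -0.01, -0.28 and -0.15 at 24 h and -0.30, -0.01 and -0.07 after the short exposure, with means of -0.15 ± 0.14 and -0.13 ± 0.15 (SD, n = 3 each). Its level was 10.17 ± 0.56 in Cr(VI) roots and 10.32 ± 0.52 in water roots at 24 h, and 10.22 ± 0.26 in Cr(VI) roots and 10.35 ± 0.11 in water roots after the short exposure. All 6 ratios were below 0, with means about as large as their SD. Median centring in place of loess gave a 24 h mean of -0.43, and short replicate 1, the only short array outside slide 2, stood at -0.30.

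OsNAAT1 (Os02g0306400, chromosome 2) had no probe under the rule. A pair of probes carries its locus number followed by the word area, which the files do not explain, and they stay outside all counts here. The brighter one had log2 ratios of 0.91, 0.46 and -0.22 at 24 h and -0.97, 0.01 and -0.56 after the short exposure, and the other had 0.79, 0.19 and -0.32 at 24 h and -0.91, -0.19 and -0.52 after the short exposure. In both probes the exposures overlapped and the 24 h values lay on both sides of 0, with means of 0.38 ± 0.57 and 0.22 ± 0.55 at 24 h and of -0.51 ± 0.49 and -0.54 ± 0.36 after the short exposure (SD, n = 3 each).

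The regulators stood on opposite sides of the water control at 24 h. OsIRO3 (Os03g0379300, chromosome 3), the repressor, had log2 ratios of 1.43, 1.01 and 0.81 at 24 h and 0.86, 1.19 and 0.99 after the short exposure. All 6 arrays were above 0, the exposures overlapped, and the means were 1.08 ± 0.32 (2.12-fold higher) and 1.01 ± 0.16 (2.02-fold higher; SD, n = 3 each). Its levels at 24 h were 9.85, 9.64 and 9.09 in Cr(VI) roots, against 8.42, 8.63 and 8.28 in water roots, and no array had the channels in the other order. The mean at 24 h was 0.91 without replicate 1 and 0.88 with median centring, and the short mean was 0.92 without replicate 2 and 0.96 without background subtraction, each under 2-fold.

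OsIRO2 (Os01g0952800, chromosome 1), the activator, had log2 ratios of -0.38, -0.61 and -0.37 at 24 h and -0.50, 0.30 and -0.07 after the short exposure. The 3 values at 24 h were below 0 and the short values lay on both sides of it, with means of -0.45 ± 0.14 and -0.09 ± 0.40 (SD, n = 3 each). With offset 0 the 24 h mean was -0.69 and with processed signals -0.79, and its other probe gave a short mean of 0.06. It was a dim gene, at 6.75 to 7.45 in Cr(VI) roots and 7.13 to 7.88 in water roots at 24 h, and its water signal was well above background on 1 of 3 short arrays.

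The loci were also set against each other array by array, in the same ratios and levels that chose them, so nothing is read from the shares here either. On short replicate 2 the ratio was the highest of the short arrays for 8 of 9 loci, against 35.6% of all genes, and the water level was the lowest of all 6 arrays for 6 of 9 (all 3 NAS loci, OsYSL15, OsTOM1 and OsIRO2), against 18.5%. Among the short arrays alone its water level was the lowest for 7 of 9, against 27.4%. On 24 h replicate 3 the Cr(VI) level and the water level were each the lowest of the 24 h arrays for 8 of 9 loci, against 29.4% and 30% of all genes. The ratio on that array was the lowest of the 24 h arrays for 6 of 9 loci, against 34.5%. These were 5 of the 8 tested loci and OsYSL2, whose signal stayed close to background. Short replicates 2 and 3 shared a slide, and the OsNAS1 ratio was -0.51 on the first of them and -1.44 on the other. Whether growth, collection or hybridization of single samples had a part in these values was not tested.

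A second probe, where a locus had one, was compared with the first on each array. OsYSL15, OsTOM1, OsDMAS1 and OsYSL2 each had 1 probe of 1 spot, so no such comparison was possible for them. The largest difference between the probes of a locus on any array was 0.11 for OsNAS1, 0.27 for OsNAS2, 0.26 for OsNAS3, 0.18 for OsIRO3 and 0.43 for OsIRO2, and the area probes of OsNAAT1 differed by at most 0.27. For OsNAS1 this is less than its replicate SD of 0.66 at 24 h and 0.97 after the short exposure, whereas for OsIRO2 it exceeds the SD of 0.14 at 24 h and 0.40 after the short exposure, and for OsIRO3 the short SD of 0.16. The probes of a locus read one RNA and are not replicates. The NAS genes are close relatives, and whether a probe of one also binds RNA of another was not tested.

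**Figure D3:**
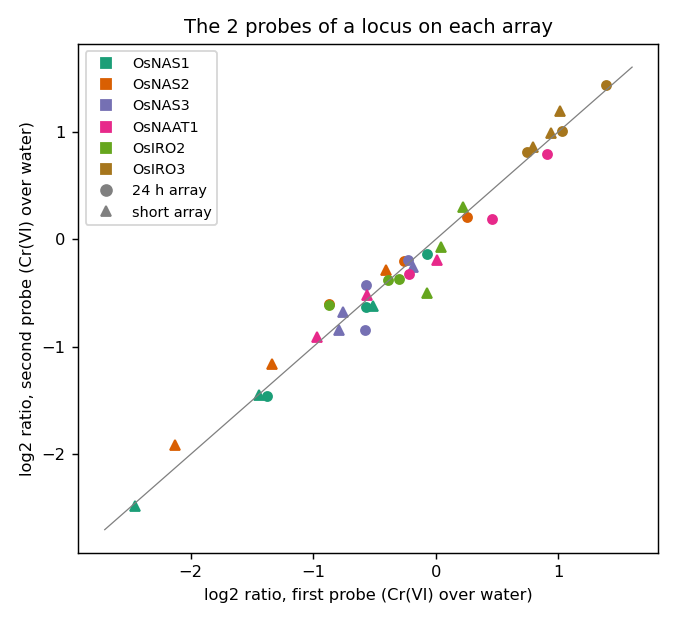
Log2 ratio of Cr(VI) over water of the second probe of a locus (vertical axis) against the first (horizontal axis), one point per locus and array, with circles for 24 h arrays, triangles for short arrays and the line of equality. Points of OsNAS1 lie within 0.11 of the line from -2.48 to -0.07, and the widest departure is 0.43 in OsIRO2.

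Likeness between genes was taken as the Euclidean distance between their 6 log2 ratios, among the 19834 genes whose signal was well above background in at least 1 channel of each array. By this measure OsNAS2 was the gene nearest to OsNAS1, at a distance of 1.12, and OsTOM1 was the 3rd nearest, at 1.41. Seen from OsNAS2, OsNAS1 ranked 7th, and seen from OsTOM1 it ranked 135th. The other members were farther from OsNAS1, with ranks of 124 for OsNAS3, 2871 for OsIRO2, 4445 for OsDMAS1, 18823 for OsIRO3 and 19096 for OsYSL15. The 2nd nearest to OsNAS1 was Os12g0132500 on chromosome 12, at 1.18, which was also the nearest to OsTOM1, at 0.451. It had log2 ratios of -0.92, -1.17 and -1.40 at 24 h and -2.05, -0.70 and -1.78 after the short exposure, so it too was highest among short arrays on short replicate 2. The gene nearest to OsYSL15, an unnamed locus of chromosome 11 at a distance of 0.833, had mean ratios of -4.23 at 24 h and -1.05 after the short exposure. The 6 genes nearest to the median profile of the members lay at distances of 0.369 to 0.39. All points come from the same 6 hybridizations, and the distances are a description. They use the same ratios that chose the members, so nothing is read from the ranks of members. Whether the probe of any of these genes also binds RNA of another was not tested.

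The neighbours on the chromosome, which the choice of members did not use, moved in several directions. By RefSeq names, no protein-coding gene lies between OsNAS2 and OsNAS1 or between OsYSL2 and OsYSL15. The next loci on the array on each side of the members came to 16, of which 13 were tested with limma. At an adjusted p under 0.05, 5 fell and 5 rose at 24 h, where 30.9% and 33.7% of all genes did. After the short exposure 7 fell and 4 rose, where 24.1% and 30.6% of all genes did, and the 24 h ratio was lower than the short ratio for 4 and higher for 2, where 22.3% and 16.4% were. Among the 13, the locus after OsTOM1 was also on a list of loci for phytosiderophore and nicotianamine efflux, whose names could not be checked. Its mean ratio was -0.41 ± 0.17 at 24 h and -0.61 ± 0.22 after the short exposure (SD, n = 3 each; limma adjusted p = 0.0047 and 0.00085).

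Individual neighbours were picked after their values were seen, and the files do not name them. Os02g0649800, the locus before OsYSL2, had log2 ratios of -0.03, -0.10 and -0.63 at 24 h and 2.11, 1.47 and 2.43 after the short exposure. It rose after the short exposure by 2.00 ± 0.49 (SD, n = 3; limma adjusted p = 3.9e-05), and its mean at 24 h was -0.25 ± 0.33 (limma adjusted p = 0.23). After the short exposure it thus stood on the other side of the water control from OsYSL15, which lies beyond OsYSL2. Os02g0650500, the locus after OsYSL15, rose by 1.16 ± 0.16 at 24 h and by 0.99 ± 0.17 after the short exposure (SD, n = 3 each; limma adjusted p = 6.7e-06 and 3.1e-05). Os03g0307400, the locus after OsNAS1, fell by 1.00 ± 0.10 at 24 h and by 0.37 ± 0.06 after the short exposure (SD, n = 3 each; limma adjusted p = 2.9e-06 and 0.0011), with replicate spreads well under that of OsNAS1.

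**Figure D4:**
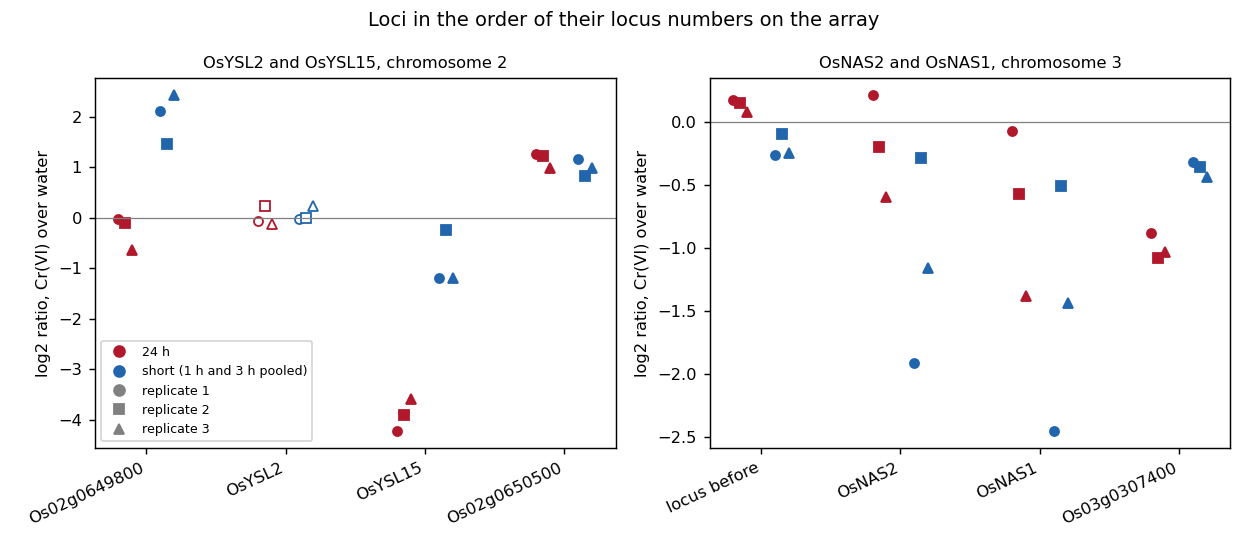
Log2 ratio of Cr(VI) over water (vertical axis) on each array for OsYSL2 and OsYSL15 (left panel) and OsNAS2 and OsNAS1 (right panel) with the next loci on the array, in the order of their locus numbers (horizontal axis, not to scale). Red marks 24 h arrays, blue short arrays, and open markers a locus not well above background. OsYSL15 lies far below Os02g0650500 at 24 h, and the replicates of Os03g0307400 lie closer together than those of OsNAS1.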

How the data were processed

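Per the file headers, the authors read the scans with Agilent Feature Extraction 10.7.1.1, and the intensity values used here are median pixel values of spots and of the background around them. The deposited series table holds log2 ratios that matched the log2 of processed Cy5 over processed Cy3 (correlation 1), which settled scale and direction, and its column medians of -0.178 to 0.0385 show that the authors had not centred it on the median.

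Median signals were used because the files hold no mean signal columns. Normexp background correction (offset 50) and loess within arrays were run with limma 3.58.1 (R 4.3.3), and outlier spots and control spots, plant control probes included, had weight 0. The probe with the highest mean brightness stood for a locus. Tested genes had a signal well above background in 1 channel or both on 3 or more of 6 arrays, and 2 or more values per exposure. Channel levels were taken after Aquantile normalization. One limma model over all 6 arrays (residual degrees of freedom 4, prior 4.36) gave p-values, Benjamini-Hochberg adjusted over all 23490 genes, with thresholds of 0.05 and, for 2-fold calls, a log2 ratio of 1. The pipeline was tested on simulated data.

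The members, lists and tests were chosen with earlier results of these data known. Named were the members and, by rule, genes of fixed pathway lists and the 6 genes nearest the members' median profile. Member names are those that came with the list of loci. RefSeq (assembly ASM3414082v1) was used for names and neighbourhood only: it matched 0 of 29689 locus numbers and held 7 member names as synonyms, 6 of them on the chromosome of the locus number, with OsIRO2 the exception. Hence the 6 pathway lists (57 loci) and the tissue markers could not be filled, and unnamed loci stay as counts. Exceptions are 4 printed by number, 1 by its chromosome and a few by the member they lie beside. The labels give the replicate numbers no meaning, and the main fit did not pair arrays by them. Deviations of same-numbered arrays correlated at -0.24, -0.12 and -0.10 across genes, which does not show whether samples were grown or collected as pairs. Chromosomes are read from locus numbers, and no sequences are shown.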

Additional observations from a re-analysis of the deposited data

Results flagged for a closer look

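Loci beside the members were singled out after their values were seen. Among them, 2 had a Cr(VI) response that differed between the exposures by the limma test of the difference itself. Of the 13 neighbours tested, the 24 h ratio was lower for 4 and higher for 2, where 22.3% and 16.4% of all genes were. Neighbours of OsIRO2 (-1.05, limma adjusted p = 0.00045) and OsNAS3 (0.77, limma adjusted p = 0.0011), not singled out, differed by more than Os03g0307400. For Os02g0649800, beside OsYSL2, the 24 h ratio minus the short ratio was -2.26 (SE 0.25, limma adjusted p = 0.00029, and 1.2e-06 to 0.0078 over the alternatives). Its short values of 2.11, 1.47 and 2.43 were above all 24 h values of -0.03, -0.10 and -0.63. For Os03g0307400, beside OsNAS1, the difference was -0.62 (SE 0.086, limma adjusted p = 0.00086, and 0.00028 to 0.031 over the alternatives), and its 3 values at 24 h lay below its 3 short values. Both ranges of p cover 17 alternatives, and the setting without the short arrays on slide 2 was not among them. Slide and exposure cannot be told apart in either difference.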

How the results depend on the processing

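The signs of the mean ratios of OsNAS1, OsNAS3, OsDMAS1, OsYSL15, OsTOM1 and OsIRO3 held at both exposures under every alternative run, and those of OsNAS2 and OsIRO2 did so apart from means of 0.01 (OsNAS2, 24 h) and 0.11 (OsIRO2, short) without 1 array and of 0.06 (OsIRO2, short) with its other probe. OsYSL15 ran from -4.37 to -3.74 at 24 h and from -1.20 to -0.72 after the short exposure. The loci at least 2-fold lower after the short exposure numbered 3, and 5 with Agilent's processed signals and with the series table. Leaving out 1 array gave 1 to 4, the 1 being without short replicate 1. OsIRO3, close to 2-fold, made the count of higher loci 1. That count was 0 at 24 h with median centring and 0 or 1 with 1 array left out (0 without 24 h replicate 1). After the short exposure it was 0 without background subtraction, with median centring, with the mean of all probes, without the short arrays on slide 2 and with the other probe of a locus, the last pair of settings chosen after seeing the data, and 0 or 1 with 1 array left out (0 without short replicate 2). The lower loci at 24 h stayed at 2 with 1 array left out. The median short ratio of -0.59 was -1.02 with processed signals and with the series table, -0.92 with offset 0, and -0.76 to -0.47 with 1 array left out, and the median at 24 h of -0.45 was -0.68 with processed signals and with the series table and -0.49 to -0.31 with 1 array left out.

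Over all genes, 2-fold calls numbered 1951 at 24 h, 1234 after the short exposure and 1401 for the difference. Processed signals gave 3601, 2589 and 2479, and the deposited log2 ratios of the series gave 3607, 2588 and 2479. Offset 0 gave 2901, 1706 and 2026. One array left out gave 1893 to 2103, 1206 to 1293 and 1377 to 1433. The short calls split into 1084 higher and 150 lower, against 1853 and 736 with processed signals and 1853 and 735 with the series table. The 24 h calls split into 1148 higher and 803 lower, against 968 and 1337 with median centring, and the difference into 516 and 885, against 427 and 1262. With the replicate number as a replicate block, calls numbered 1950, 1238 and 1405, though replicate numbers have no stated meaning. With slide as a random block they numbered 1953, 1235 and 1405. No filter on dim probes, a stricter one and a variance prior with trend moved these counts by less than 1.5 times. Causes were not tested. Alternatives for pathway lists and promoter sequences were not run. Signal near background limits OsYSL2 at both exposures, and OsTOM1, OsNAS3 and OsIRO2 after the short exposure. At 24 h OsTOM1 and OsIRO2 were well above background on all 3 arrays. Their 24 h means still depended on the background correction, at -1.62 and -0.69 with offset 0 and -1.85 and -0.79 with processed signals.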
